A study of Homo sapiens with 14 samples.

Results

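The genes described here encode the nuclear-encoded subunits of the mitochondrial respiratory chain in HEK 293 cells, a line derived from human embryonic kidney. They were chosen by symbol: the NDUFA, NDUFB, NDUFC, NDUFS and NDUFV genes, SDHA to SDHD, CYC1, the UQCR genes, the COX4 to COX8 genes, and the ATP5F, ATP5M and ATP5P genes. The rule uses no measured value, although it was chosen with earlier results of these data known. It found 83 of the 18006 genes in the count table. Of these, 36 belong to complex I, 4 to complex II, 9 to complex III, 17 to complex IV and 17 to complex V. NDUFA4 carries a complex I name but was counted with complex IV, where the protein sits. Enough counts for a test were present for 77 of the 83 genes.

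The respiratory chain is a set of protein complexes in the inner mitochondrial membrane. Complexes I and II pass electrons from NADH and succinate to coenzyme Q, complex III passes them to cytochrome c, and complex IV passes them to oxygen. Complexes I, III and IV pump protons, and complex V, the ATP synthase, uses the proton gradient to make ATP. Mitochondrial DNA encodes part of every complex but II, and none of the subunits it encodes is among the members. All other subunits are made from nuclear genes, translated in the cytosol and imported.

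The series measured poly(A) RNA of HEK 293 cells by RNA sequencing in 14 libraries. Cleavage factor Im (CFIm) binds UGUA sequences in pre-mRNA and helps to choose the site at which the transcript is cleaved and polyadenylated. CFIm25 is encoded by NUDT21 and CFIm68 by CPSF6. The groups were wild-type control cells (3 libraries), CFIm25 knockdown (2), CFIm68 knockdown (3), CFIm25 overexpression (3) and CFIm68 overexpression (3). The knockdowns were made with siRNA. Every sample, control and overexpression included, carries the same siRNA transfection text. The sources used here do not state the vector and promoter of the overexpression cells, how many clones they are, or which siRNA or vector the control received. Nothing in the labels says whether libraries of 1 group came from separate cultures, so the p-values measure the spread between these libraries. Total counts per library ran from 15822467 to 33895308.

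The targeted genes followed the labels. NUDT21 stood at 537, 500 and 505 CPM (counts of a gene scaled to the size and composition of its library) in the control libraries and at 54.6 and 52.9 CPM in the CFIm25 knockdown. It reached 782, 734 and 671 CPM in the CFIm25 overexpression libraries, a log2 change of 0.50. CPSF6 stood at 274, 262 and 268 CPM in control, at 40.5, 41.8 and 42.5 CPM in the CFIm68 knockdown, and at 717, 750 and 723 CPM in the CFIm68 overexpression. Neither group overlapped control for its own gene. Each knockdown also moved the partner: CPSF6 was higher in the CFIm25 knockdown, at 526 and 540 CPM, and NUDT21 was lower in the CFIm68 knockdown, at 242, 231 and 224 CPM.

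Of 8 markers checked for HEK 293, 6 (VIM, NEFL, INA, PAX2, KRT8 and KRT18) were at 1 CPM or more in control, and NEFM and LHX1 were below it. Their sum was 1590 to 1680 CPM in control, 1400 to 1420 in the CFIm25 knockdown and 1480 to 1730 in the other groups. Of other cell types, the summed keratinocyte list (5 genes, nearly all of it KRT17) was 4.05 to 4.48 CPM in control, 9.67 to 14.2 CPM in the CFIm68 knockdown and 10.3 to 13.3 CPM in the CFIm25 overexpression. KRT5, KRT14 and KRT6A were at or near 0 in every library. Summed kidney markers (6 genes) were 165 to 185 CPM in control and 151 to 199 CPM elsewhere. Of these, CUBN rose by 0.79 and 0.95 on the log2 scale in the CFIm25 and CFIm68 knockdowns, and LRP2 fell by 0.17 in the CFIm25 overexpression. Summed blood markers (6 genes) were 0.202 to 2.07 CPM in all, with PTPRC and HBB at 0. The summed mesenchymal list (7 genes, mostly COL1A1) was 50.8 to 55.4 CPM in control, 53.3 to 58.2 in the CFIm25 knockdown, 66.4 to 68.6 in the CFIm68 knockdown, 47.5 to 54.6 in the CFIm25 overexpression and 25.3 to 28.7 CPM in the CFIm68 overexpression, with DCN and COL1A2 at 0 in every library. Within it, LUM was 1.94 to 3.06 CPM in control and at most 0.226 CPM in the CFIm25 overexpression and 0.167 CPM in the CFIm68 overexpression, and COL3A1 was at most 0.218 CPM in control and 0.749 to 1.38 CPM in the knockdowns. Summed striated muscle markers (4 genes) were 1.99 to 2.68 CPM in control and reached 13.0 CPM in CFIm25 overexpression library 2, where ACTA1 stood at 7.18 and CKM at 5.26 CPM. Without that library 54 of 77 subunits were called lower in the CFIm25 overexpression, against 57 with it. The part of these marker lists in the results below was not tested.

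Most subunit genes were well expressed. The control level ranged from 12.1 to 2300 CPM, with a median of 114 CPM over the 77 tested members against 26.8 CPM over all 12080 tested genes. Levels of different genes were compared per kilobase of the longest annotated transcript, since a longer transcript gives more counts. On that scale the median control level was 58.0 CPM per kb in complex I, 79.7 in complex II, 121 in complex III, 123 in complex IV and 78.5 in complex V. Per kilobase of all exons joined, the medians were 41.2, 29.1, 83.6, 65.7 and 54.2, so the order of the complexes changed with the length used and complex II moved from the third place to the last. ATP5F1B, the catalytic beta subunit of the ATP synthase, was the highest of all members at 1250 CPM per kb, and it alone supplied 17.2% of the members' summed CPM in control. UQCRH, the hinge protein between cytochrome c1 and cytochrome c, reached 479 CPM per kb and COX6B1, a subunit on the outer face of complex IV, reached 443. The lowest member was SDHC, a membrane anchor of complex II, at 1.49 CPM per kb, and ATP5F1A, the partner of ATP5F1B in the F1 head, stood at 7.98. These depend on the annotated length: the longest SDHC transcript has 13.6 kb and the longest ATP5F1A transcript 5.82 kb. Several members also have pseudogenes with which reads may be shared (7 genes are named as ATP5F1A pseudogenes and 4 as SDHC pseudogenes). In all, 49 of the 83 members have at least 1, so the order of levels between genes is uncertain.

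**Figure D1:**
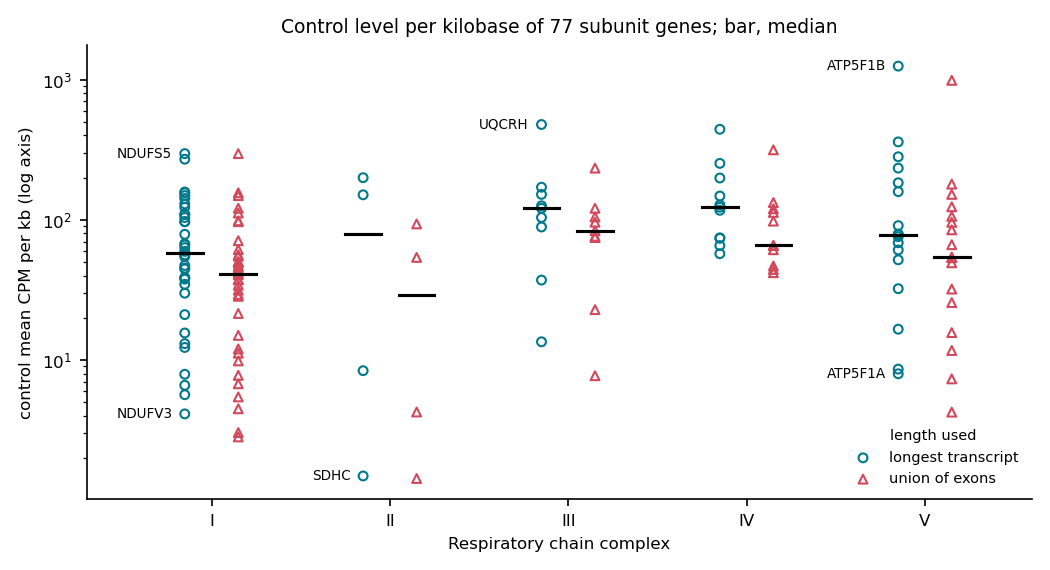
Mean control level of each of the 77 tested subunit genes by complex, in CPM per kilobase on a log axis, with the length taken from the longest transcript (circles) or from all exons joined (triangles). Bars mark medians. ATP5F1B lies highest at 1250 CPM per kb of its longest transcript and SDHC lowest at 1.49.

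The 6 untested members are all complex IV isoforms that other tissues use. COX6A2 and COX7A1 are the heart and muscle forms, COX4I2 is a lung form, and COX6B2, COX7B2 and COX8C are testis forms. COX6B2 had 26 counts over the 14 libraries, COX8C had 3, COX4I2 and COX6A2 had 1 each, and COX7A1 and COX7B2 had 0. A count of 0 in 295321127 counts allows a level of up to 0.0102 CPM (3 counts, counting error only). Their ubiquitous counterparts COX4I1, COX6A1, COX6B1, COX7A2, COX7B and COX8A were all tested, at 29.8 CPM (COX8A) to 321 CPM (COX4I1) in single control libraries. The highest count of any untested isoform in any single library was 5, for COX6B2.

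Against control, subunit transcripts were mostly higher in both knockdowns and mostly lower in the CFIm25 overexpression, while the CFIm68 overexpression moved few of them and in both directions. All counts use edgeR's quasi-likelihood test with Benjamini-Hochberg adjustment over the 12080 tested genes, at an adjusted p under 0.05. In the CFIm25 knockdown, 39 of 77 members rose and 6 fell, where 24.4% of all tested genes rose and 23.2% fell. The median log2 change of the members was 0.19, and 58 of 77 were above 0. In the CFIm68 knockdown, 37 rose and 16 fell, where 28.3% of all tested genes rose and 28.1% fell, and the members' median was 0.13. Since poly(A) RNA was taken from whole cultures, fewer cells that express a gene and less RNA per cell cannot be told apart.

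The CFIm25 overexpression lowered 57 members and raised 5, where 29.1% of all tested genes fell and 27.7% rose. The members' median log2 change was -0.25, and 10 of 77 were above 0. The CFIm68 overexpression raised 10 and lowered 11, where 14.5% of all tested genes rose and 15.4% fell, so the members' shares lay near those of all genes. The median over all tested genes was within 0.01 of 0 in each of these comparisons. All 4 share the control libraries, so they are not independent of each other.

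The changes of the called members were small. Among the 39 members that rose in the CFIm25 knockdown, the log2 change ran from 0.19 to 0.86 with a median of 0.38. The 37 that rose in the CFIm68 knockdown ran from 0.13 to 0.65. Among the 57 that fell in the CFIm25 overexpression, the decrease ran from 0.12 to 0.84. The libraries of these called members did not overlap control in 39 of 39, 35 of 37 and 49 of 57, where the same held for 98.7%, 97.0% and 92.2% of all genes called in the same direction. A gene that passes the test seldom overlaps, so these counts describe the called members and do not set them apart from other called genes. In the CFIm68 overexpression the largest decrease was 0.32 and the largest increase 0.36.

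**Figure D2:**
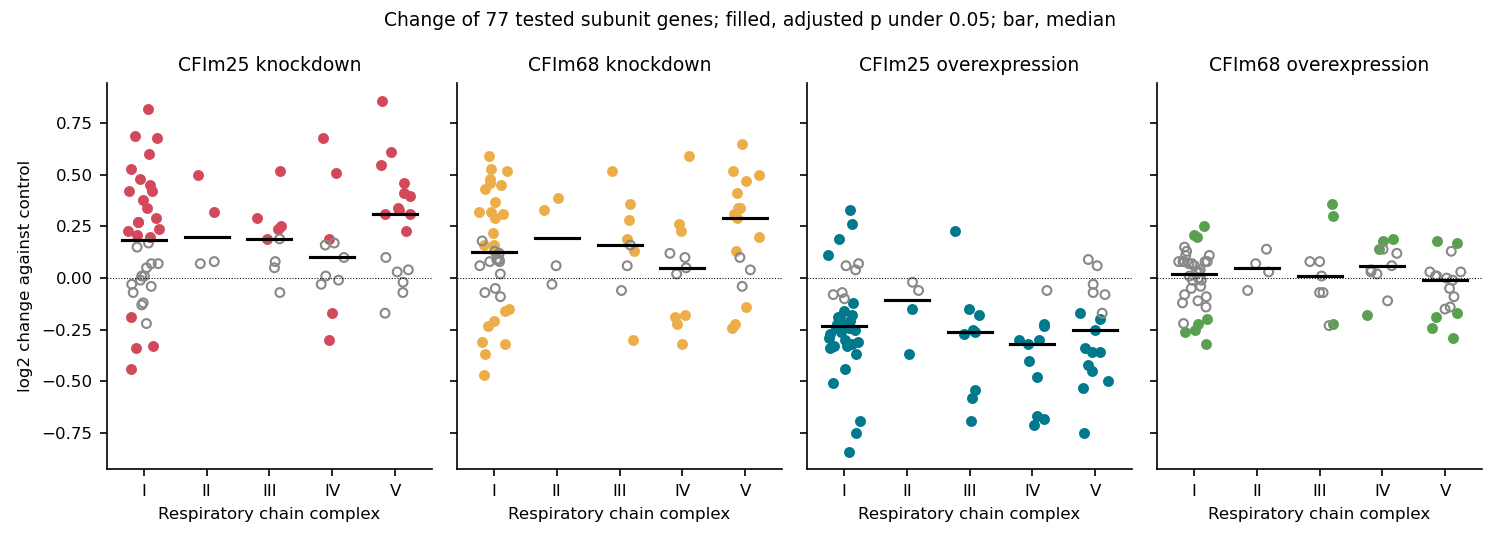
Log2 change against control of the 77 tested subunit genes, by complex, in the 4 perturbed groups. Filled points passed an adjusted p under 0.05 (edgeR), open points did not, and bars mark the median of each complex. In the CFIm25 overexpression panel the medians of all 5 complexes lie below 0, and complex IV has the lowest.

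The control libraries themselves differed a little across the set. Relative to the control mean, the median member stood at -0.01, -0.07 and 0.07 on the log2 scale in control libraries 1, 2 and 3, and 71 of 77 members were below the mean in library 2 and 71 above it in library 3. The perturbed groups lay outside this range, with medians of 0.21 and 0.16 in the CFIm25 knockdown libraries, 0.13, 0.14 and 0.11 in the CFIm68 knockdown, and -0.27, -0.20 and -0.26 in the CFIm25 overexpression. The CFIm68 overexpression libraries, at 0.05, -0.01 and 0.00, lay within it. Leaving out control library 3, the highest, reduced the members lower in the CFIm25 overexpression from 57 to 46 and those lower in the CFIm68 overexpression from 11 to 4, where 26.6% and 13.5% of all tested genes were then lower. Leaving out control library 2, the lowest, reduced those higher in the CFIm25 knockdown from 39 to 35, those higher in the CFIm68 knockdown from 37 to 30, and those higher in the CFIm68 overexpression from 10 to 6, where 21.6%, 25.2% and 12.4% of all tested genes were then higher.

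**Figure D3:**
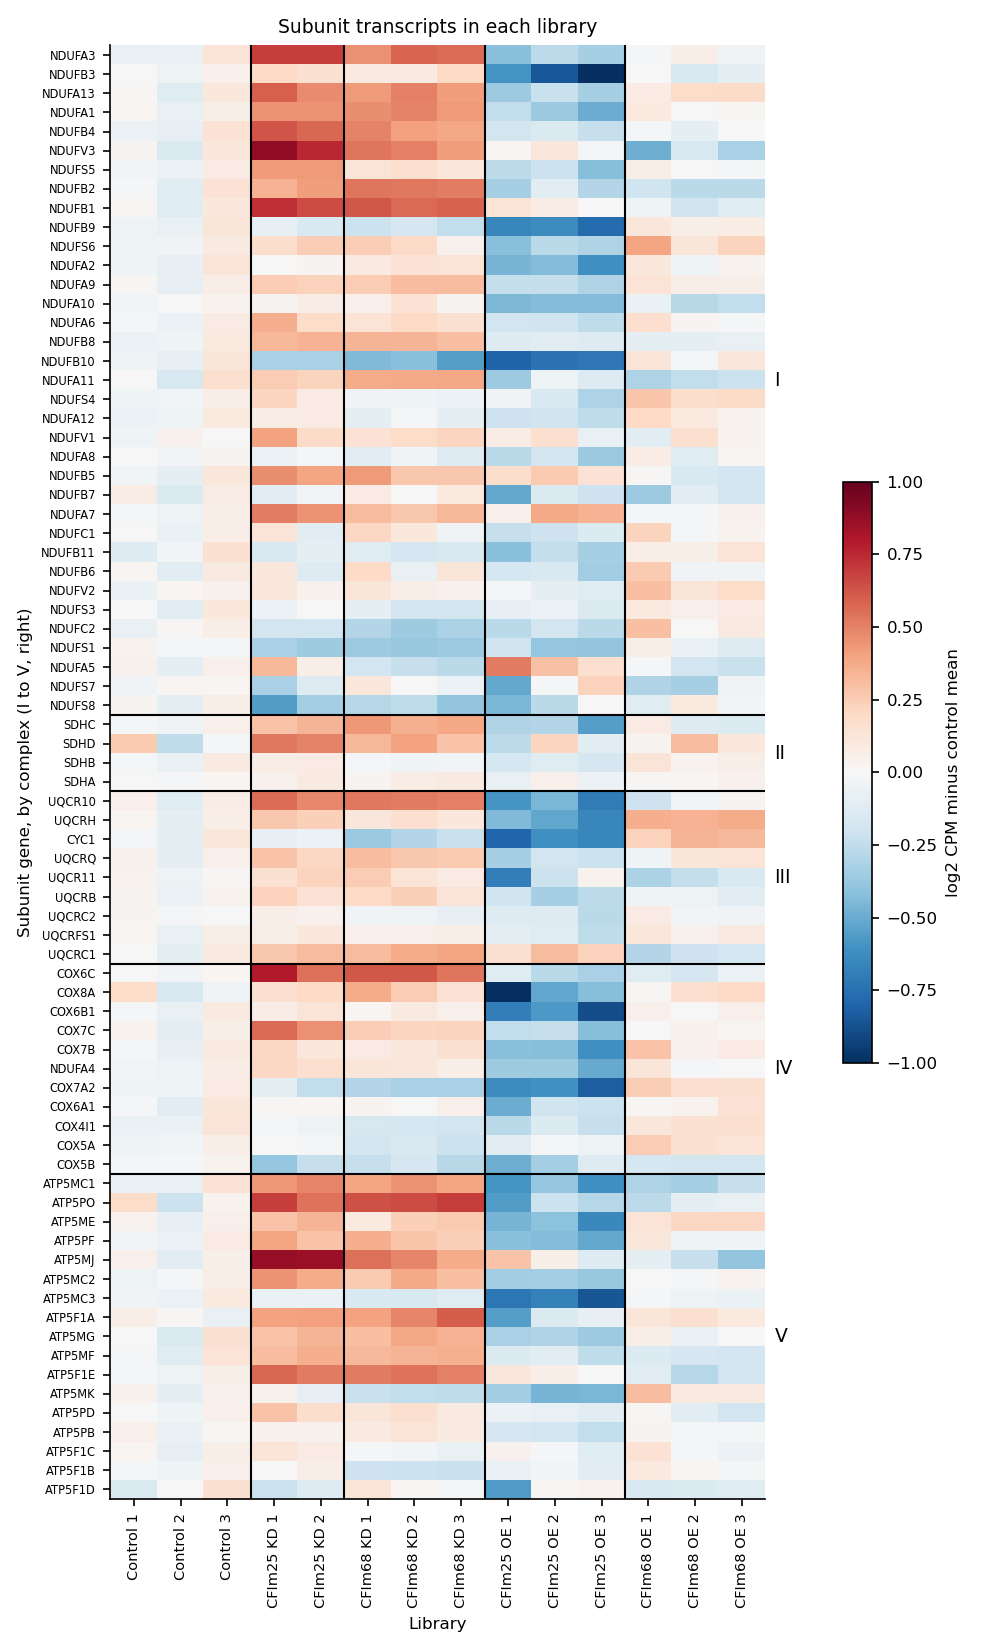
Level of 76 of the 77 tested subunit genes (rows, grouped by complex I to V) in each library (columns) as log2 CPM minus the control mean, with colours saturating at -1 and 1. Rows within a complex are ordered by the difference between CFIm25 knockdown and overexpression, and the CFIm25 overexpression columns are blue for most genes of each complex.

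Summed over all members, the transcripts made up 13250, 12800 and 13970 CPM in the control libraries. They made up 14800 and 14700 CPM in the CFIm25 knockdown, 111% of the control mean, and 11560, 11890 and 11170 CPM in the CFIm25 overexpression, 86.5% of it. These groups did not overlap control. The sum was 104% of control in the CFIm68 knockdown and 102% in the CFIm68 overexpression, and both overlapped the control range of libraries. Relative to control, the complex IV sum was the lowest of the 5 complexes in the CFIm25 overexpression, at 76.7% (1451, 1534 and 1415 CPM against 1884, 1829 and 2021 CPM). The corresponding shares were 86.5% for complex I, 94.9% for complex II, 86.6% for complex III and 89.0% for complex V. A sum is weighted towards the most abundant genes, above all ATP5F1B in complex V.

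Complex I consists of a core, which holds the flavin and iron-sulphur centres and the membrane pumps, and of accessory subunits around it. The 7 core members lie in the arm outside the membrane, since mitochondrial DNA encodes the pumps. Of the 29 accessory genes, 16 rose and 2 fell in the CFIm25 knockdown, 15 rose and 5 fell in the CFIm68 knockdown, and 3 rose and 24 fell in the CFIm25 overexpression. Of the 7 core genes, 2 rose and 2 fell in the CFIm25 knockdown, 1 rose and 3 fell in the CFIm68 knockdown, and 1 rose and 2 fell in the CFIm25 overexpression. Of all tested genes, 24.4% rose and 23.2% fell in the CFIm25 knockdown, and 28.3% rose and 28.1% fell in the CFIm68 knockdown. In the CFIm25 overexpression 27.7% rose and 29.1% fell. The 7 core genes are too few for their counts to be set apart from these shares. The difference between core and accessory genes was not tested.

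NDUFA3, an accessory subunit (chr19:54102728-54109257, plus strand, hg38), was measured at 35.2, 35.5 and 40.9 CPM in control. It stood at 59.7 and 59.7 CPM in the CFIm25 knockdown, at 50.8, 55.4 and 54.6 in the CFIm68 knockdown, and at 27.7, 30.9 and 29.5 in the CFIm25 overexpression. The knockdown libraries all lay above control and the CFIm25 overexpression libraries all below it, while the CFIm68 overexpression, at 36.6, 38.8 and 36.3 CPM, overlapped control. The log2 change was 0.68 ± 0.07 (SE, edgeR adjusted p = 1.1e-08) in the CFIm25 knockdown, 0.53 ± 0.07 (adjusted p = 1.1e-07) in the CFIm68 knockdown and -0.34 ± 0.07 (adjusted p = 0.00017) in the CFIm25 overexpression.

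Other accessory genes moved in part of this pattern. NDUFB1 (chr14:92116122-92121917, minus strand), a membrane arm subunit, rose from 96.6 to 113 CPM in control to 174 and 165 CPM in the CFIm25 knockdown and to 156 to 161 CPM in the CFIm68 knockdown. Its CFIm25 overexpression libraries, at 105 to 115 CPM, overlapped control. NDUFV3, a small subunit of the NADH-oxidising tip, stood at 19.6, 17.4 and 20.8 CPM in control and rose to 35.6 and 32.5 CPM in the CFIm25 knockdown, a log2 change of 0.82 ± 0.09 (edgeR adjusted p = 1.6e-08). It rose by 0.48 in the CFIm68 knockdown and fell by 0.32 in the CFIm68 overexpression (13.7, 17.2 and 15.4 CPM), a call that did not hold without control library 3 (-0.26) or CFIm68 overexpression library 1 (-0.24). NDUFB4, NDUFA13 and NDUFA1 rose in both knockdowns, by 0.43 to 0.60 on the log2 scale, and fell in the CFIm25 overexpression, by 0.19, 0.31 and 0.37. The NDUFB4 decrease was lost without control library 3 (-0.11) or CFIm25 overexpression library 3 (-0.17).

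NDUFB3 had the largest decrease of any member in the CFIm25 overexpression. This membrane arm subunit (chr2:201071433-201085750, plus strand) was measured at 41.2, 39.9 and 42.6 CPM in control and at 27.3, 22.9 and 18.4 CPM in the CFIm25 overexpression, a log2 change of -0.84 ± 0.09 (edgeR adjusted p = 5.8e-09). The groups did not overlap. Its knockdown libraries, at 43.9 to 47.4 CPM, were all above control, but neither difference passed the threshold (log2 changes 0.17 and 0.13). Other large decreases in the CFIm25 overexpression were those of NDUFB9 (0.69), NDUFA2 (0.51) and NDUFA10 (0.44), all accessory subunits, none of which rose in either knockdown. With the median change of the 50 nearest tested genes on the chromosome removed, the NDUFA10 change was -0.03 and no longer passed, while NDUFB3 (-0.49) and NDUFB9 (-0.39) still did. Outside that group, NDUFB9 was also called lower in the CFIm68 knockdown, at 143, 148 and 140 CPM against 160, 158 and 181 in control. NDUFA10 was also called lower in the CFIm68 overexpression, at 61.5, 53.1 and 54.2 CPM against 63.1, 64.2 and 66.0 in control.

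Several complex I genes fell in the knockdowns as well as in the CFIm25 overexpression. NDUFS1, the largest iron-sulphur subunit of the core (chr2:206114817-206159603, minus strand), stood at 469, 453 and 454 CPM in control. It stood at 366 and 358 CPM in the CFIm25 knockdown, at 356, 353 and 357 in the CFIm68 knockdown, and at 399, 350 and 350 in the CFIm25 overexpression. All 8 of these libraries lay below control, with log2 changes of -0.34, -0.37 and -0.32 and edgeR adjusted p-values of 3e-05, 1e-06 and 8.2e-06. The median change of the 50 tested genes nearest to NDUFS1 was -0.21, -0.14 and -0.25 in the same groups, and with it removed the NDUFS1 change was -0.14 in the CFIm25 knockdown and -0.07 in the CFIm25 overexpression, neither past the threshold. NDUFB10, an accessory subunit on chromosome 16, fell in the same groups, with log2 changes of -0.33, -0.47 and -0.75 and neighbour medians of -0.48, -0.42 and -0.41. With those removed, NDUFB10 still passed in the CFIm25 overexpression at -0.34, while its change was 0.15 in the CFIm25 knockdown and -0.05 in the CFIm68 knockdown. NDUFS8, another iron-sulphur subunit of the core, fell by 0.44 in the CFIm25 knockdown and by 0.31 in the CFIm68 knockdown, where the change was -0.16 and no longer passed without the neighbours' median. NDUFC2, an accessory subunit of the membrane arm, fell in the CFIm25 knockdown (0.19), the CFIm68 knockdown (0.32) and the CFIm25 overexpression (0.24), from 113, 120 and 124 CPM to 105 and 104, to 97.2, 93.2 and 95.7, and to 98.5, 105 and 98.9 CPM. The first of these was lost when any of 4 libraries was left out (-0.16 to -0.19).

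NDUFA5 was the only member that rose past the threshold in 1 knockdown and fell past it in the other. This subunit of the peripheral arm was measured at 122, 111 and 122 CPM in control, at 149 and 124 CPM in the CFIm25 knockdown and at 103, 101 and 98.0 CPM in the CFIm68 knockdown. The 2 knockdowns did not overlap, and they differed by a log2 change of -0.43 ± 0.08 (edgeR adjusted p = 0.00022). The increase in the CFIm25 knockdown, 0.20 with an adjusted p of 0.045, was 0.07 without library 1 and no longer passed, and it was also lost without control library 1 or 2 (0.22 and 0.16) and with DESeq2 or limma-voom. In the CFIm25 overexpression NDUFA5 stood at 169, 145 and 132 CPM, a log2 change of 0.33, and its 50 nearest tested genes had a median of 0.27 there. With that median removed the change was 0.06 and did not pass. A further 12 genes are named as NDUFA5 pseudogenes, so its counts may include other loci.

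Further core genes gave few calls. NDUFV1, the subunit that binds the flavin and NADH, rose by 0.29 in the CFIm25 knockdown (18.9 and 16.4 CPM against 13.9 to 14.7). Without CFIm25 knockdown library 1 that change was 0.19 and did not pass. NDUFV2 rose by 0.20 in the CFIm68 overexpression. NDUFS3 fell by 0.16 in the CFIm68 knockdown, with overlapping libraries (-0.11 and lost without control library 3), and NDUFS7 passed in none of the comparisons with control.

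Complex II, succinate dehydrogenase, also belongs to the citric acid cycle and is the one complex made wholly from nuclear genes. SDHA, the flavoprotein (chr5:218241-256700, plus strand), stood at 449 to 458 CPM in control and at 430 to 482 CPM in all other libraries, and its log2 change was -0.02 to 0.07 in the 4 comparisons, none past the threshold. SDHB, the iron-sulphur subunit, fell by 0.15 in the CFIm25 overexpression (-0.11 and lost without control library 3) and passed in no other comparison with control. The anchors that hold these in the membrane, SDHC and SDHD, rose in both knockdowns.

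SDHC stood at 20.1, 19.7 and 21.0 CPM in control, at 24.7 and 25.7 CPM in the CFIm25 knockdown, at 27.4, 25.9 and 26.5 in the CFIm68 knockdown and at 16.4, 16.5 and 13.8 in the CFIm25 overexpression. None of these groups overlapped control, and the log2 changes were 0.32, 0.39 and -0.37 (SE 0.08 to 0.09, edgeR adjusted p = 0.0033, 8.8e-05 and 0.00043). SDHD rose by 0.50 and 0.33 in the knockdowns, from 14.4, 10.1 and 11.9 CPM in control to 17.2 and 16.9 CPM and to 14.6 to 15.8 CPM. Its control libraries were the most spread of the complex, and without control library 2 its change in the CFIm68 knockdown was 0.21 and did not pass, nor did it without CFIm68 knockdown library 2 (0.29).

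Complex III takes electrons from coenzyme Q to cytochrome c through the Rieske iron-sulphur protein (UQCRFS1) and cytochrome c1 (CYC1). Of its 9 members, 5 rose and 0 fell in the CFIm25 knockdown, 5 rose and 1 fell in the CFIm68 knockdown, and 1 rose and 8 fell in the CFIm25 overexpression. In the same order, 24.4% and 23.2%, 28.3% and 28.1%, and 27.7% and 29.1% of all tested genes rose and fell. The 5 small accessory genes all fell in the CFIm25 overexpression, and 4 of them rose in each knockdown. UQCR11 was the exception in the knockdowns, and its decrease of 0.27 in the CFIm25 overexpression overlapped control and was 0.08 without library 1. The count of 0 is edgeR's, and it was also 0 at an unadjusted p under 0.05.

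UQCR10, one of these small subunits (chr22:29767369-29770413, plus strand), was measured at 84.4, 74.7 and 85.6 CPM in control. It stood at 120 and 113 CPM in the CFIm25 knockdown, at 117, 117 and 116 in the CFIm68 knockdown, at 54.2, 59.4 and 50.2 in the CFIm25 overexpression and at 70.5, 79.8 and 83.1 in the CFIm68 overexpression. The knockdown libraries were all above control, the CFIm25 overexpression libraries all below it, and the CFIm68 overexpression overlapped it. The log2 changes were 0.52 ± 0.07, 0.52 ± 0.06 and -0.58 ± 0.07 (edgeR adjusted p = 1e-06, 1.1e-07 and 4e-08) and -0.07 (adjusted p = 0.49).

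UQCRH followed the same direction in the knockdowns and the CFIm25 overexpression, but not in the CFIm68 overexpression. From 333, 309 and 344 CPM in control it rose to 395 and 386 CPM in the CFIm25 knockdown and fell to 242, 229 and 208 CPM in the CFIm25 overexpression. It reached 423, 418 and 426 CPM in the CFIm68 overexpression, a log2 change of 0.36 ± 0.05 (edgeR adjusted p = 5.6e-06), the largest increase of any member there. Both overexpression groups lay outside the control range, on opposite sides. Its increase in the CFIm68 knockdown was 0.13 and was lost when any one of control libraries 1 and 2 or of the 3 knockdown libraries was left out (0.09 to 0.14).

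CYC1 was lower in the CFIm68 knockdown, at 146, 155 and 163 CPM against 187, 178 and 205 CPM in control, and lower still in the CFIm25 overexpression, at 109, 124 and 121 CPM. It was higher in the CFIm68 overexpression, at 223, 241 and 238 CPM. The log2 changes were -0.30, -0.69 and 0.30 (edgeR adjusted p = 8.1e-05, 1.2e-10 and 0.00027), and no group overlapped control. The genes around it moved the same way: the median of its 50 nearest tested genes was -0.50, -0.77 and 0.25 in the same groups. With those medians removed the CYC1 changes were 0.20, 0.07 and 0.05, so the direction turned in the CFIm68 knockdown and the CFIm25 overexpression, and the call in the CFIm68 overexpression was lost. In the CFIm25 knockdown, where CYC1 did not change past the threshold (-0.07), the neighbours' median was -0.46.

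UQCRC1, one of the core proteins related to processing peptidases, rose in both knockdowns and in the CFIm25 overexpression, from 341, 317 and 362 CPM in control to 409 and 422, to 423, 438 and 445, and to 378, 422 and 399 CPM. In the CFIm68 overexpression it fell to 277, 295 and 301 CPM, a log2 change of -0.22 ± 0.05 (edgeR adjusted p = 0.002). With the medians of its neighbours removed, the CFIm25 overexpression change was 0.01 and the CFIm68 overexpression change -0.13, neither past the threshold. UQCRC2, the partner core protein, and UQCRFS1 passed only in the CFIm25 overexpression, where they fell by 0.18 and 0.15. The UQCRFS1 decrease was lost without control library 3 (-0.12) or CFIm25 overexpression library 3 (-0.10).

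Complex IV, cytochrome c oxidase, has its catalytic centre encoded by mitochondrial DNA, so its nuclear-encoded members are structural and regulatory. Of the 11 tested, 3 rose and 2 fell in the CFIm25 knockdown, 3 rose and 4 fell in the CFIm68 knockdown, and 0 rose and 10 fell in the CFIm25 overexpression, the 0 also holding at an unadjusted p under 0.05. Of all tested genes, 24.4% rose and 23.2% fell in the CFIm25 knockdown, and 28.3% rose and 28.1% fell in the CFIm68 knockdown. The complex IV counts lay near these shares in both knockdowns. In the CFIm25 overexpression 27.7% of all tested genes rose and 29.1% fell. COX5A was the one member that did not fall there (173, 185 and 181 CPM against 182, 184 and 196 CPM), while it fell by 0.19 in the CFIm68 knockdown and rose by 0.18 in the CFIm68 overexpression. The second of these was 0.07 and lost with the neighbours' median removed. NDUFA4 rose by 0.19 in the CFIm25 knockdown, a call lost without library 1 (0.16), and fell by 0.40 in the CFIm25 overexpression. COX4I1, one of the largest nuclear-encoded subunits, fell by 0.18 in the CFIm68 knockdown and by 0.22 in the CFIm25 overexpression, and its change was 0.02 in both without the neighbours' median.

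COX6B1 (chr19:35648223-35658861, plus strand) stood at 292, 280 and 314 CPM in control, at 310 and 323 and at 299, 315 and 306 CPM in the knockdowns, and at 306, 296 and 305 CPM in the CFIm68 overexpression, all overlapping control. In the CFIm25 overexpression it stood at 182, 198 and 159 CPM, below every other library, with a log2 change of -0.71 ± 0.06 (edgeR adjusted p = 6.5e-11). COX7B and COX6A1 also fell only in the CFIm25 overexpression among the comparisons with control, by 0.48 and 0.30. COX8A fell there by 0.67 (15.7, 23.0 and 24.6 CPM against 37.6, 29.8 and 32.3). Its increase of 0.26 in the CFIm68 knockdown overlapped control and was lost without control library 2 (0.19) or CFIm68 knockdown library 1 (0.19), among others.

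COX6C and COX7C, small subunits of the membrane part, rose in both knockdowns. COX6C stood at 129, 127 and 131 CPM in control, at 223 and 188 CPM in the CFIm25 knockdown, at 199, 198 and 186 in the CFIm68 knockdown and at 118, 107 and 103 in the CFIm25 overexpression. The knockdown changes were 0.68 ± 0.07 and 0.59 ± 0.06 (edgeR adjusted p = 3.4e-09 and 2.5e-09) and the groups did not overlap. The COX6C decrease in the CFIm25 overexpression, 0.23, was not past the threshold after removing the median of its neighbours (-0.07), and 17 genes are named as its pseudogenes. COX7C rose by 0.51 and 0.23 in the CFIm25 and CFIm68 knockdowns, and the difference between these, -0.28, itself passed (edgeR adjusted p = 0.00073).

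COX7A2, the ubiquitous form of subunit VIIa (chr6:75237675-75250323, minus strand), ran against the majority in the knockdowns. It stood at 224, 224 and 245 CPM in control, at 216 and 195 CPM in the CFIm25 knockdown, at 188, 185 and 184 in the CFIm68 knockdown, at 149, 152 and 131 in the CFIm25 overexpression and at 274, 258 and 257 in the CFIm68 overexpression. No group overlapped control. The log2 changes were -0.17, -0.32, -0.68 and 0.19 (edgeR adjusted p = 0.026, 2.8e-05, 8.4e-11 and 0.013). The first and last were lost when single libraries were left out, for example control library 3 (-0.13) and control library 1 (0.17). The first was also lost without CFIm25 knockdown library 2 (-0.10). COX5B fell in all 4 groups, by 0.18 to 0.32, from 93.3 to 96.8 CPM in control, although its decrease in the CFIm68 overexpression was lost whichever library of the pair of groups was left out. With the neighbours' medians removed, only the CFIm25 overexpression call held, and the change was -0.15, -0.09 and 0.07 in the CFIm25 knockdown, CFIm68 knockdown and CFIm68 overexpression.

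Complex V is a rotary motor. Protons turn a ring of c subunits in the membrane, a central stalk carries the rotation into the F1 head, and a peripheral stalk holds the head still. Of the 17 members, 11 rose and 0 fell in the CFIm25 knockdown, 11 rose and 3 fell in the CFIm68 knockdown, 0 rose and 11 fell in the CFIm25 overexpression, and 2 rose and 4 fell in the CFIm68 overexpression. Shares of all tested genes higher and lower in these groups were 24.4% and 23.2%, 28.3% and 28.1%, 27.7% and 29.1%, and 14.5% and 15.4%. Both counts of 0 are edgeR's and were also 0 at an unadjusted p under 0.05. The median log2 change of complex V, 0.31 and 0.29 in the 2 knockdowns, was the highest of the complexes.

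The c subunit is encoded by ATP5MC1, ATP5MC2 and ATP5MC3, whose mature proteins are the same. All 3 fell in the CFIm25 overexpression, but the knockdowns separated them. ATP5MC1 rose from 166, 164 and 192 CPM in control to 234 and 244 CPM in the CFIm25 knockdown and to 228, 236 and 229 in the CFIm68 knockdown, and stood at 115, 133 and 113 in the CFIm25 overexpression. ATP5MC2 rose from 99.1, 101 and 107 CPM to 140 and 132 CPM and to 123, 133 and 126 CPM, and fell to 80.4, 81.0 and 78.8 CPM. ATP5MC3, the most abundant in CPM of the 3, stood at 327, 320 and 357 CPM in control, at 320 and 319 CPM in the CFIm25 knockdown and at 302, 301 and 307 in the CFIm68 knockdown, and at 203, 210 and 185 in the CFIm25 overexpression.

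For ATP5MC1 and ATP5MC2 the knockdown libraries were thus all above control, whereas for ATP5MC3 they were at or below the lowest control library. The log2 changes in the CFIm25 knockdown were 0.46, 0.41 and -0.07 (edgeR adjusted p = 2.4e-06, 1.4e-06 and 0.35) and in the CFIm25 overexpression -0.53, -0.36 and -0.75 (3.4e-08, 2e-06 and 1.2e-12). The decrease of ATP5MC3 in the CFIm68 knockdown, 0.14, was lost without control library 3 (-0.09), without CFIm68 knockdown library 2 (-0.14) and with the neighbours' median removed (-0.00413). In the CFIm68 overexpression ATP5MC1 was the one of the 3 that fell, by 0.29, at 140, 138 and 148 CPM, which was -0.16 and lost with the neighbours' median removed.

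The F1 head combines ATP5F1A and ATP5F1B. ATP5F1B (chr12:56638175-56646068, minus strand) stood at 2280, 2230 and 2390 CPM in control, at 2310 and 2400 in the CFIm25 knockdown, at 2200, 2250 and 2120 in the CFIm25 overexpression and at 2460, 2330 and 2260 in the CFIm68 overexpression. These overlapped control. Only in the CFIm68 knockdown did it fall past the threshold, to 1990, 1980 and 1960 CPM, a log2 change of -0.22 ± 0.05 (edgeR adjusted p = 0.00017), and there it also differed from the CFIm25 knockdown (-0.25, adjusted p = 0.00042). ATP5F1A rose by 0.40 and 0.50 in the knockdowns, from 48.5, 46.6 and 44.1 CPM to 61.2 and 61.5 CPM and to 61.2, 65.1 and 70.7 CPM. Its decrease of 0.25 in the CFIm25 overexpression was 0.10 and lost without library 1 (31.7 CPM, against 42.0 and 43.9), and also lost without control library 1 (-0.22).

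Of the central stalk, ATP5F1E, the epsilon subunit (chr20:59025467-59032382, minus strand), rose from 276, 268 and 290 CPM to 415 and 398 CPM and to 398, 405 and 394 CPM in the knockdowns, by 0.55 and 0.52. ATP5F1C and ATP5F1D, the gamma and delta subunits, passed in none of the 4 comparisons with control. Of the peripheral stalk, ATP5PO, the protein that clamps the stalk to the head, rose from 27.6, 21.0 and 24.9 CPM to 39.3 and 35.4 CPM and to 37.7, 38.3 and 39.3 CPM, by 0.61 ± 0.09 and 0.65 ± 0.09 (edgeR adjusted p = 6.7e-06 and 2.5e-07). It shares 655 exonic bases with another annotated gene on the same strand, so reads there cannot be assigned to it alone. ATP5PF rose by 0.34 and 0.29 and fell by 0.45 in the CFIm25 overexpression. ATP5PB fell by 0.20 there and passed in no knockdown comparison with control. ATP5PD rose by 0.23 and 0.13 in the knockdowns, calls that were lost without CFIm25 knockdown library 1 (0.18) and without any of 5 libraries (0.10 to 0.14).

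Among the accessory membrane subunits, ATP5MJ had the largest increase of any member in the CFIm25 knockdown. It stood at 55.5, 49.7 and 55.7 CPM in control, at 97.9 and 97.1 CPM in the CFIm25 knockdown and at 78.5, 75.2 and 69.1 CPM in the CFIm68 knockdown. The log2 changes were 0.86 ± 0.09 and 0.47 ± 0.08 (edgeR adjusted p = 4.7e-09 and 1.2e-05), and the difference between the knockdowns, -0.39, passed with an adjusted p of 0.0009. In the CFIm25 overexpression its libraries, at 65.2, 55.7 and 49.0 CPM, straddled control. ATP5ME, ATP5MF and ATP5MG rose in both knockdowns and fell in the CFIm25 overexpression, by 0.50, 0.17 and 0.34, although the ATP5MF decrease overlapped control and was 0.10 and not past the threshold without control library 3. ATP5MK fell by 0.24 in the CFIm68 knockdown and by 0.42 in the CFIm25 overexpression.

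**Figure D4:**
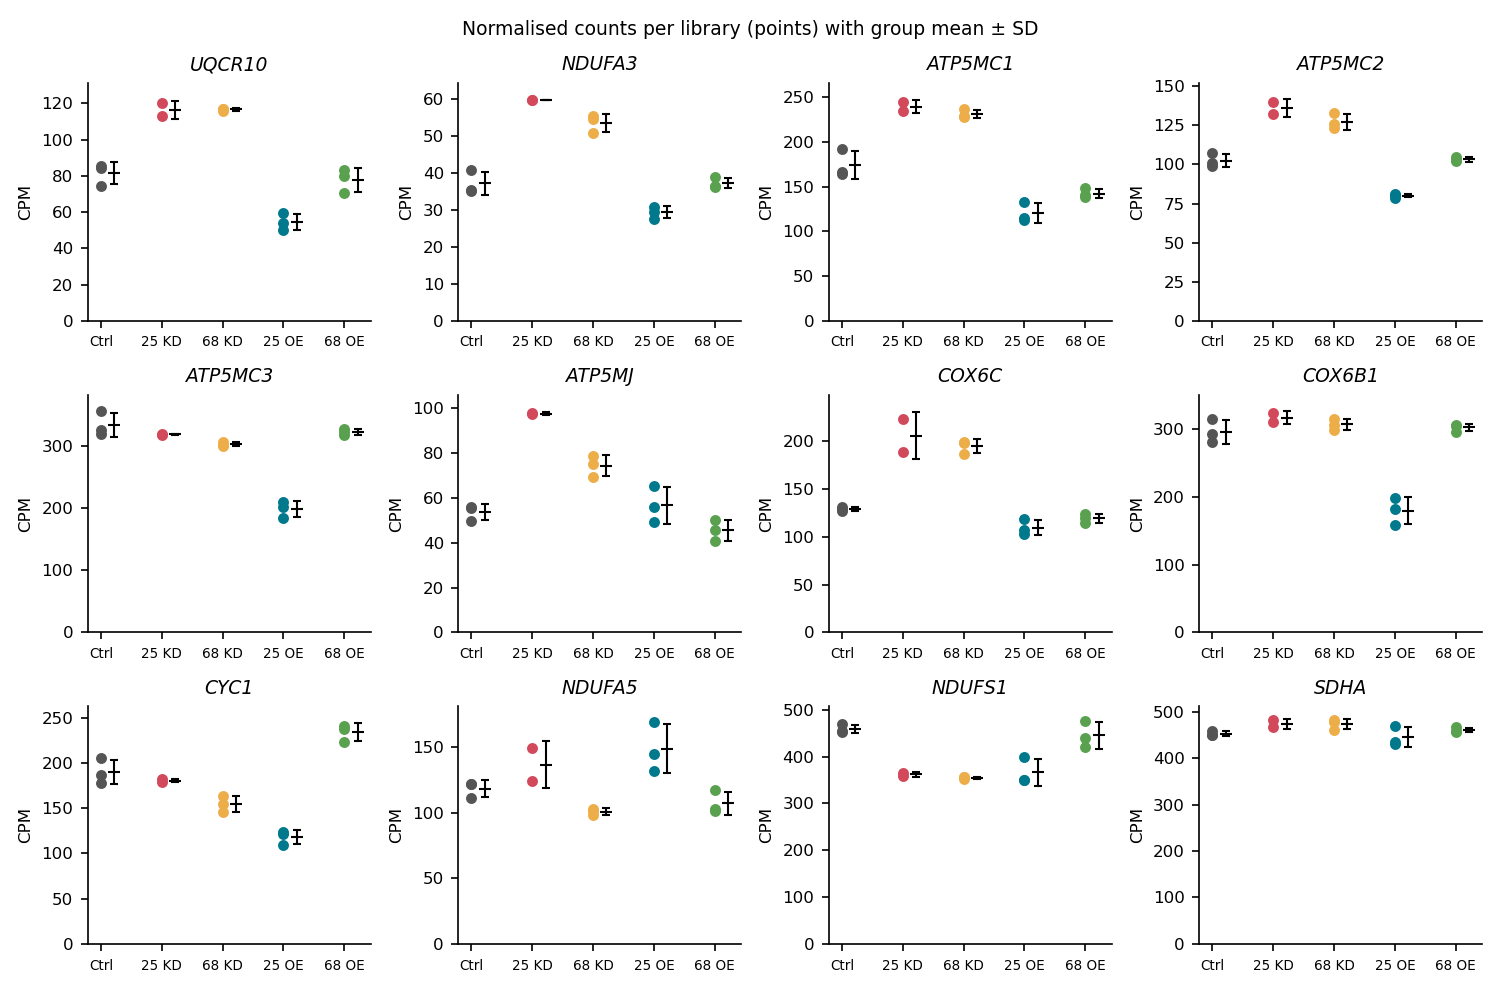
CPM of 12 subunit genes in each library (points) with the group mean and SD beside them, for control (Ctrl), CFIm25 knockdown (25 KD), CFIm68 knockdown (68 KD), CFIm25 overexpression (25 OE) and CFIm68 overexpression (68 OE). Each axis starts at 0. UQCR10 and ATP5MC1 lie above control in both knockdowns and below it in the CFIm25 overexpression, while COX6B1 and ATP5MC3 lie apart from control mainly in the CFIm25 overexpression.

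The knockdowns were then compared with each other. Compared with the CFIm25 knockdown, the CFIm68 knockdown had 0 members higher and 10 lower, where 11.1% of all tested genes were higher and 13.2% lower. The 0 is the count by edgeR with all groups in 1 fit, DESeq2 also gave 0, and 1 member was higher at an unadjusted p under 0.05. A fit of these 2 groups alone gave 5 higher and 24 lower, where it called 17.2% of all genes it tested higher and 19.1% lower. The 10 were NDUFA5, ATP5MJ, NDUFV3, NDUFS5, COX7C, ATP5F1B, CYC1, ATP5MK, NDUFS4 and COX5A, with decreases from 0.43 to 0.18. The 10 of 77 lay near the share of all genes. Without CFIm25 knockdown library 1 the count was 5, where 7.13% of all tested genes were lower. NDUFS5, a subunit of the membrane arm, stood at 218 and 218 CPM in the CFIm25 knockdown and at 178, 181 and 175 CPM in the CFIm68 knockdown, a log2 change of -0.29 ± 0.06 (edgeR adjusted p = 0.00045).

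The overexpression groups differed from each other in most members. In the CFIm68 overexpression 50 members were higher and 8 lower than in the CFIm25 overexpression, where 32.9% of all tested genes were higher and 30.8% lower, and the members' median was 0.27. The largest differences were those of CYC1 (0.99 ± 0.06, edgeR adjusted p = 3e-14), UQCRH (0.90 ± 0.05, adjusted p = 1.7e-14) and COX7A2 (0.87 ± 0.06, adjusted p = 2.6e-13). The CYC1 difference was -0.02 once the medians of its neighbours were removed. The 8 lower in the CFIm68 overexpression were NDUFA5, UQCRC1, NDUFV3, ATP5MJ, NDUFB5, NDUFA7, ATP5F1E and NDUFB1, by 0.47 to 0.20. Of these, the sign of the difference turned for NDUFA5 (0.00148), NDUFB5 (0.03), ATP5MJ (0.08), NDUFA7 (0.10) and NDUFB1 (0.28) with the neighbours' medians removed.

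Setting each knockdown against the overexpression of the same subunit gave a pair of comparisons with no library in common. For CFIm25, 63 of 77 members were higher in the knockdown and 0 lower, where 28.6% of all tested genes were higher and 27.5% lower. The 0 is edgeR's count, it was also 0 with DESeq2, and 0 members were lower at an unadjusted p under 0.05. Fits that left out CFIm25 knockdown library 1, CFIm25 overexpression library 1 or CFIm25 overexpression library 3 gave 1, 2 and 1 lower members. The median difference was 0.49, and 72 of 77 were above 0. For CFIm68, 35 members were higher and 17 lower, where 33.7% of all tested genes were higher and 33.5% lower, so these shares were nearer to those of all genes, and the median was 0.11.

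In complex V, 14 of 17 members were higher in the CFIm25 knockdown than in the CFIm25 overexpression and 11 of 17 in the CFIm68 pair. In complex IV the counts were 9 of 11 and 2 of 11, with 3 of 11 lower in the CFIm68 pair. Of all tested genes, 28.6% were higher in the CFIm25 pair, and 33.7% were higher and 33.5% lower in the CFIm68 pair. The difference between the complexes was not tested. Over the 77 members 33 were higher in both comparisons, 11 were higher in the CFIm25 pair and lower in the CFIm68 pair, and 19 were higher in the first and not past the threshold in the second. Of all 12080 tested genes, 15.2%, 5.71% and 7.73% had these joint calls. Those 33 are all but 2 of the 35 higher in the CFIm68 pair. The 11 of opposite call were ATP5MK, COX4I1, COX7A2, CYC1, NDUFA12, NDUFB10, NDUFB11, NDUFB9, NDUFS4, NDUFV2 and UQCRH. Of these, NDUFB10 and CYC1 turned to 0.06 and 0.15 in the CFIm68 pair with the neighbours' medians removed, and COX4I1 (-0.00681), NDUFA12 (-0.01), NDUFB9 (-0.03), NDUFS4 (-0.11) and NDUFV2 (-0.03) no longer passed there. Across the 77 genes the 2 differences had a Pearson r of 0.48 and a Spearman rho of 0.49, and across all 12080 tested genes 0.29 and 0.34. These are descriptions across genes, which are not independent replicates.

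**Figure D5:**
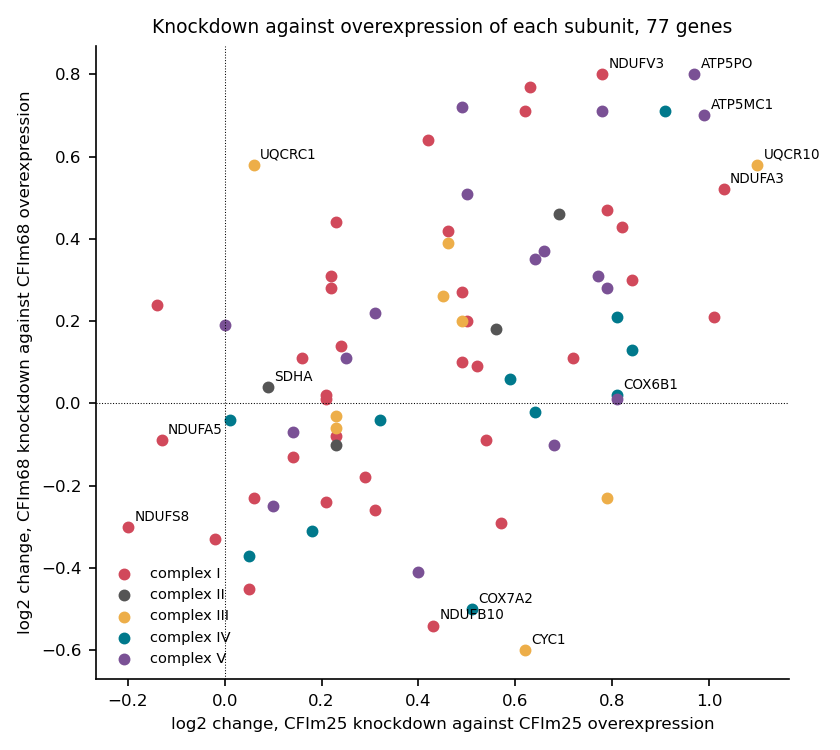
Log2 change of each of the 77 tested subunit genes between CFIm25 knockdown and CFIm25 overexpression (horizontal) and between CFIm68 knockdown and CFIm68 overexpression (vertical), coloured by complex. Values above 0 are higher in the knockdown, 72 of 77 genes lie right of 0, and 49 of 77 lie above 0.

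The members with the largest difference between CFIm25 knockdown and overexpression were UQCR10 (1.10 ± 0.07), NDUFA3 (1.03 ± 0.07) and NDUFB3 (1.01 ± 0.09), followed by ATP5MC1 (0.99 ± 0.07) and ATP5PO (0.97 ± 0.10), with edgeR adjusted p-values from 5.7e-13 to 1.8e-09. The 100 bases before the start of those 5 genes and of COX8A (0.84 ± 0.12), as given by RefSeq for GRCh38.p14, are shown because nuclear respiratory genes are known to share promoter motifs. These 6 were the members with a promoter in the table and the largest such difference. The start is that of RefSeq and differs from the GENCODE gene bounds used for the other positions here. By those bounds the NDUFA3, NDUFB3 and ATP5PO windows lie inside the gene, and the ATP5MC1 and COX8A windows partly so. Capitals mark a match to the NRF1 motif (GCGC, any base, then TGCGC) or the ETS motif CCGGAAGT on either strand, and the UQCR10 match runs on past the start. The windows are chr22:29767269-29767368, chr19:54102755-54102854, chr2:201071901-201072000 and chr17:48892687-48892786 on the plus strand for UQCR10, NDUFA3, NDUFB3 and ATP5MC1, chr21:33915805-33915904 on the minus strand for ATP5PO, and chr11:63974520-63974619 on the plus strand for COX8A.
UQCR10: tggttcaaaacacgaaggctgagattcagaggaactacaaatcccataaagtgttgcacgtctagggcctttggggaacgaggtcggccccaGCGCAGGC
NDUFA3: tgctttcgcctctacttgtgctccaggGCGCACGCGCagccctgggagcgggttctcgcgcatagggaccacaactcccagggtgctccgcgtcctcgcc
NDUFB3: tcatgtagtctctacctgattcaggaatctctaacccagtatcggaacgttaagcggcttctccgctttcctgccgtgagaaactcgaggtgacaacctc
ATP5MC1: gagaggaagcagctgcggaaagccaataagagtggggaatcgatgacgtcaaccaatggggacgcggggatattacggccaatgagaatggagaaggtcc
ATP5PO: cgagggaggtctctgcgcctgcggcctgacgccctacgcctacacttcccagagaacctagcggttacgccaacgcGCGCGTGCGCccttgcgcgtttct
COX8A: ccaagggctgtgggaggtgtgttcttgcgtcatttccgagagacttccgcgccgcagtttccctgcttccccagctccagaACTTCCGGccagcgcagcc

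UQCR10, NDUFA3 and ATP5PO held the NRF1 motif, COX8A held the ETS motif, and NDUFB3 and ATP5MC1 held neither in these windows. NRF1 is a transcription factor known for binding promoters of respiratory genes, and factors of the ETS family (GABP) and YY1 are known for the same. Over the 63 members with a RefSeq promoter of 250 bases before to 50 after the start, 25.4% held the NRF1 motif, against 11.1% of tested genes and 6.28% of all 27305 promoters. The ETS motif was in 15.9% against 8.61% and 4.44%, and the YY1 motif ATGGCGGC in 19.0% against 6.15% and 3.21%. None of the 3 motifs contains another. Of the 47 members with such a promoter that fell in the CFIm25 overexpression, 11 held the NRF1, 8 the ETS and 9 the YY1 motif. Of the 31 that rose in the CFIm25 knockdown, 10, 5 and 6 did. Whether a motif goes with a change was not tested. A match describes the letters, and no binding was measured.

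The members have short transcripts. Their longest transcript had a median of 1.44 kb against 3.62 kb over all tested genes, their annotated 3′ untranslated region a median of 449 nucleotides against 1320, and the number of UGUA motifs in it a median of 2 against 6. These come from the annotation, and the poly(A) sites used in these cells were not measured here. By call, the median UGUA number was 3 for the 39 members that rose in the CFIm25 knockdown, 2.5 for the 6 that fell and 2 for the 32 that did not pass, and in the CFIm25 overexpression it was 2 for the 57 that fell and 4 for the 5 that rose.

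The tested genes were split into 4 classes by transcript length. In the shortest class (up to 2.38 kb, 3020 genes), 32.3% fell and 22.2% rose in the CFIm25 overexpression, with a median log2 change of -0.06. Of the 53 members in that class 40 fell and 3 rose, with a median of -0.27. In the CFIm25 knockdown 27.8% of that class rose and 18.8% fell, and 28 of the 53 members rose and 3 fell. In the next class (to 3.62 kb) 9 of 11 members fell in the CFIm25 overexpression, where 29.1% of that class fell. In the third (to 5.33 kb) 2 of 6 members fell and 1 rose, with a median of -0.02, where 29.3% of that class fell. In the longest class 6 of 7 members fell, where 25.6% fell. In the CFIm25 knockdown 3 of 11, 3 of 6 and 5 of 7 members of these classes rose, where 22.4%, 22.9% and 24.6% of the classes rose. The part of transcript length in the members' changes was not tested.

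Genes that build, feed and regulate the chain were counted in the same way. Of all tested genes, 24.4% rose and 23.2% fell in the CFIm25 knockdown, and 28.3% rose and 28.1% fell in the CFIm68 knockdown. In the CFIm25 overexpression 27.7% rose and 29.1% fell, and in the CFIm68 overexpression 14.5% rose and 15.4% fell. Of the assembly factors, which help to put the complexes together, 18 of complex I were tested and 8 rose and 2 fell in the CFIm25 knockdown, 4 rose and 4 fell in the CFIm68 knockdown, 5 rose and 3 fell in the CFIm25 overexpression, and 3 rose and 5 fell in the CFIm68 overexpression. Of 21 complex IV factors the counts in the same order were 7 and 8, 9 and 8, 7 and 6, and 2 and 4. These sets fell in the CFIm25 overexpression in 3 of 18 and 6 of 21 genes, where 26 of 36 complex I subunits (24 of 29 accessory and 2 of 7 core) and 10 of 11 complex IV subunits did. The difference between factors and subunits was not tested. COA1, an assembly factor of complexes I and IV, rose by 1.18 and 1.11 in the CFIm25 and CFIm68 knockdowns, and TMEM126A, which acts in building the membrane arm of complex I, fell by 0.77 and 1.07. COX15 and COX10, which make the heme of complex IV, rose by 0.58 and 0.62 and by 0.62 and 0.53.

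The factors of the smaller complexes included single large changes. These lists are short, and the shares of all tested genes given above apply to them too. Of 3 complex II factors, 2 rose in the CFIm25 knockdown and 3 in the CFIm68 knockdown, 1 rose and 1 fell in the CFIm25 overexpression, and 1 fell in the CFIm68 overexpression. SDHAF4, which attaches to SDHA before SDHB joins it, rose by 1.59 and 0.99 in the knockdowns. Of 8 complex III factors 3 rose and 2 fell, 2 rose and 3 fell, 1 rose and 4 fell, and 3 rose and 0 fell in the CFIm25 knockdown, CFIm68 knockdown, CFIm25 overexpression and CFIm68 overexpression. Among these LYRM7, which handles the Rieske protein before insertion, rose by 0.96 and 1.08 in the knockdowns, and BCS1L, which inserts it, fell by 0.25 and 0.50. Of 5 ATP synthase factors 1 rose in each of the 4 groups and 0, 1, 1 and 1 fell. In the same order, 8 further chain proteins that the naming rule misses, such as cytochrome c (CYCS) and NDUFAB1, had 3, 4, 1 and 2 higher and 2, 2, 3 and 1 lower.

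Among other mitochondrial pathways, the 14 citric acid cycle genes had 9 higher and 1 lower in the CFIm25 knockdown, 6 and 3 in the CFIm68 knockdown, 6 and 3 in the CFIm25 overexpression, and 1 and 3 in the CFIm68 overexpression. DLD, the dihydrolipoyl dehydrogenase shared by several mitochondrial dehydrogenases, rose in the CFIm25 knockdown (0.41), the CFIm68 knockdown (0.30) and the CFIm25 overexpression (0.46) alike. The 13 coenzyme Q synthesis genes had 2 and 2, 2 and 5, 0 and 2, and 1 and 1. The 25 genes of mitochondrial protein import had 12 and 2, 6 and 7, 8 and 11, and 4 and 3, with TOMM20, an import receptor, falling by 0.59 and 1.56 in the knockdowns. Of 19 regulators of respiratory genes and of mitochondrial DNA expression, 8 rose and 2 fell, 5 rose and 4 fell, 10 rose and 5 fell, and 3 rose and 2 fell. In the same order, 24.4% and 23.2%, 28.3% and 28.1%, 27.7% and 29.1%, and 14.5% and 15.4% of all tested genes rose and fell. PPARGC1A, the coactivator PGC-1 alpha known for driving mitochondrial biogenesis, rose in both CFIm25 groups, by 1.07 ± 0.16 in the overexpression (edgeR adjusted p = 2.6e-06) and by 0.47 ± 0.18 in the knockdown (adjusted p = 0.033). The knockdown call was lost without control library 3 (0.29) or either knockdown library (0.46 and 0.49), with DESeq2 (0.47), in the fit blocked on replicate number (0.36) and once the median of its neighbours was removed (0.38).

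Ribosomal proteins are also short, abundant gene products. The 76 tested mitochondrial ribosomal proteins had 25 higher and 9 lower in the CFIm25 knockdown and 10 higher and 36 lower in the CFIm25 overexpression, with medians of 0.10 and -0.16 against 0.19 and -0.25 for the subunits. The 77 tested cytosolic ribosomal proteins had 52 higher and 1 lower and 12 higher and 24 lower in the same groups, with medians of 0.28 and -0.04. In the CFIm68 knockdown 18 mitochondrial ribosomal proteins rose and 21 fell, 61 cytosolic ones rose and 0 fell (by edgeR, and 0 at an unadjusted p under 0.05), and 37 subunits rose and 16 fell. In the CFIm68 overexpression the counts were 9 and 15 for the mitochondrial ones and 16 and 7 for the cytosolic ones. Of all tested genes, 24.4% rose and 23.2% fell in the CFIm25 knockdown, and 27.7% rose and 29.1% fell in the CFIm25 overexpression. In the CFIm68 knockdown 28.3% rose and 28.1% fell, near the mitochondrial ribosomal counts there. In the CFIm68 overexpression 14.5% of all tested genes rose and 15.4% fell. The differences between these lists were not tested.

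Counting limits apply to some members. In the annotation, 25 of the 83 overlap an exon of a second gene on their strand, among them NDUFS1, COX8A and ATP5PO, and the sources used here do not say how such reads were counted. With the median change of the 50 nearest tested genes removed from each gene, 46 members rose and 1 fell in the CFIm25 knockdown, 46 rose and 9 fell in the CFIm68 knockdown, 3 rose and 50 fell in the CFIm25 overexpression, and 3 rose and 2 fell in the CFIm68 overexpression. Under the same setting the shares of all tested genes were 22.4% higher and 22.3% lower in the CFIm25 knockdown, 26.6% and 27.5% in the CFIm68 knockdown, 25.2% and 25.6% in the CFIm25 overexpression, and 10.1% and 9.76% in the CFIm68 overexpression.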

How the data were processed

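Per the labels, a stranded TruSeq mRNA kit was used on total RNA. Per the submitters' processing notes, reads were trimmed with cutadapt 1.16 and aligned with STAR 2.7.1a to hg38. The sources used here do not name the counting tool, its annotation or its use of strand. The authors deposited whole-number read counts for 18006 Ensembl gene IDs in 14 libraries, of which 17959 matched a symbol. Groups came from the sample labels.

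Counts were tested with edgeR 4.0.16 (R 4.3.3). A filterByExpr filter (minimum count 10, minimum total 15) left 12080 genes. TMM scaling, 1 coefficient per group, quasi-likelihood tests of 8 comparisons and Benjamini-Hochberg adjustment over all tested genes followed, with a threshold of 0.05. The fit was tested on simulated data. CPM are TMM-scaled. Lengths, positions and 3′ untranslated regions came from GENCODE 29 (GRCh38), promoters from RefSeq (63 of 77 members matched). A same-strand overlap counts exonic bases in that annotation.

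The members and lists were chosen with earlier results of these data known. Named members were, per complex and comparison with control, up to 3 higher and 3 lower with the largest change among those called with a mean of at least 5 CPM, those called in both knockdowns or both overexpression groups, the isoform groups, and up to 3 each way in the other comparisons. Of other lists, up to 2 each way with the smallest adjusted p were eligible. NDUFA2, NDUFA12, NDUFB11, NDUFS3, NDUFS7, NDUFV1, SDHA, UQCR11, UQCRC2, UQCRFS1, ATP5F1C, ATP5F1D and ATP5PB were added after their values were seen. One member enters all counts, but its own values are not reported here. Alternatives were other scalings and filters, DESeq2 1.42.0, limma-voom (limma 3.58.1), a replicate block, each comparison fitted alone, removal of the median change of 50 neighbouring genes, and leaving out each library.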

Additional observations from a re-analysis of the deposited data

Results flagged for a closer look

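Members whose change differed between groups by a direct test, and which lay past the threshold on opposite sides of control, are given with that difference (edgeR, CFIm68 group minus CFIm25 group, log2). Between the knockdowns, NDUFA5 differed by -0.43: it was called higher in the CFIm25 knockdown and lower in the CFIm68 knockdown. Between the overexpression groups, 8 members were lower than control with CFIm25 and higher with CFIm68: CYC1 (0.99), UQCRH (0.90), COX7A2 (0.87), ATP5ME (0.69), ATP5MK (0.59), NDUFS6 (0.58), NDUFS4 (0.37) and COX4I1 (0.35). UQCRC1 ran the other way, with a difference of -0.46. Once the medians of neighbouring genes were removed, the difference was -0.02 for CYC1 and -0.00311 for COX4I1, and it still passed for the other 8 of the 10 genes named. The calls against control in the CFIm68 overexpression were weaker than these differences: those of COX7A2, ATP5ME, ATP5MK, NDUFS6, NDUFS4 and COX4I1 were lost when at least 1 library was left out. With the neighbours' medians removed, only 2 of the 21 members called against control in the CFIm68 overexpression kept their call.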

How the results depend on the processing

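Across the member and CFIm gene values, 8222 recomputed values kept their side of the threshold and, where called in the reported fit, their direction. A further 183 passed only under the alternative and 295 only in the reported fit, and 20 values called in the reported fit changed sign. The sign of values not called in the reported fit was not compared. All 20 came from removing the median change of 50 neighbouring genes: NDUFA5 -0.0479 and NDUFB10 0.15 (CFIm25 knockdown), COX4I1 0.015 and CYC1 0.198 (CFIm68 knockdown), COX4I1 0.0249 and CYC1 0.0749 (CFIm25 overexpression), COX5B 0.0731 (CFIm68 overexpression), NDUFS8 -0.10, NDUFA5 0.00148, NDUFA10 -0.12, COX4I1 -0.00311, NDUFB5 0.0306, ATP5MJ 0.0787, CYC1 -0.0219, NDUFB1 0.28 and NDUFA7 0.10 (CFIm68 against CFIm25 overexpression), and NDUFB7 -0.0718, NDUFB10 0.0604, CYC1 0.15 and NDUFA7 -0.000184 (CFIm68 knockdown against overexpression). The same setting moved member counts, the cause not tested: lower in the CFIm25 knockdown 1 (from 6), lower in the CFIm68 knockdown 9 (from 16), higher in the CFIm25 overexpression 3 (from 5), higher and lower in the CFIm68 overexpression 3 and 2 (from 10 and 11), lower in the CFIm68 against the CFIm25 knockdown 16 (from 10), lower in the CFIm68 against the CFIm25 overexpression 4 (from 8), and lower in the CFIm25 knockdown against overexpression 1 (from 0). Between the knockdowns, fitting only the groups compared gave 5 higher and 24 lower, and no filter gave 1 higher (from 0). The counts higher in the CFIm25 knockdown and lower in the CFIm25 overexpression stayed within 1.5 times under every alternative run, at 38 and 54 with DESeq2.

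Leaving out 1 library gave 32 to 40 higher and 4 to 7 lower in the CFIm25 knockdown, 30 to 39 and 12 to 16 in the CFIm68 knockdown, 3 to 5 and 46 to 57 in the CFIm25 overexpression, and 6 to 14 and 4 to 11 in the CFIm68 overexpression. It gave 5 to 9 lower between the knockdowns and 0 to 2 lower in the CFIm25 knockdown against overexpression. The counts moved by over 1.5 times without control library 1 or CFIm25 overexpression library 2 (3 higher in the CFIm25 overexpression), without control libraries 1 or 2 (6 higher in the CFIm68 overexpression), without control library 3 or CFIm68 overexpression library 2 (4 and 6 lower there), without CFIm25 knockdown library 1 (5 lower between the knockdowns), and without CFIm25 knockdown library 1 or CFIm25 overexpression libraries 1 or 3 (1, 2 and 1 lower in the CFIm25 pair). With 2 CFIm25 knockdown libraries, the lone library left is assumed to vary like the other groups.

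Replicate numbers showed at most a weak pairing of the libraries, and the main fit left it out. Over 26 same-numbered pairs the deviations from group means had a median correlation of 0.02 (-0.06 to 0.17), and 3 exceeded 0.1. These were the overexpression groups with each other for libraries 1 (0.171) and 3 (0.113), and CFIm25 knockdown with CFIm25 overexpression for library 1 (0.115). Over 52 pairs with different numbers the median was -0.00576 (-0.184 to 0.0838), and 0 exceeded 0.1. Deviations sum to 0 within a group, so the pairs with different numbers are not an independent comparison. A block on replicate number gave more called genes in every comparison, such as 4064 against 3605 in the CFIm68 overexpression. Whether libraries of the same number share a batch was not tested. With the replicate number as a block, 40 members rose and 6 fell in the CFIm25 knockdown, 1 was lower in the CFIm25 knockdown against overexpression (from 0), and of the member and CFIm gene values 18 newly passed and 0 stopped passing. The lowest tested member had a control mean of 12.1 CPM, and the 6 isoforms at or near 0 counts could not be tested at this depth.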
